A study of Mus musculus with 4 samples.

Results

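Genes of fatty acid and cholesterol synthesis were followed through single-cell RNA libraries of mouse mammary hyperplasia and tumors. The set was a list of 32 genes, 19 of fatty acid metabolism and 13 of sterol synthesis, chosen by name. A gene was kept when it had at least 10 UMIs (unique molecular identifiers, the counted transcript molecules) over the annotated cells of all libraries. This left 31 of the 32 genes, among 21332 genes of the series that passed the same minimum. The 19 fatty acid members were all kept, with 12 of the 13 sterol members. Idi1, the isopentenyl diphosphate isomerase, had 7 UMIs and was left out.

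Fatty acids are built in the cytosol from acetyl-CoA, which ATP citrate lyase (Acly) makes from citrate. Acetyl-CoA carboxylase (Acaca) turns it into malonyl-CoA, and fatty acid synthase (Fasn) assembles the chain with NADPH, part of which comes from malic enzyme (Me1). Elongases (Elovl genes) and desaturases (Scd genes) then modify the chain. Cholesterol is made from the same precursor through the mevalonate pathway, squalene and lanosterol. The transcription factor SREBP-1, from Srebf1, drives mainly the fatty acid genes and SREBP-2, from Srebf2, mainly the sterol genes, while Insig1 holds both precursors in the endoplasmic reticulum when sterols are plentiful. The secretory mammary epithelium makes large amounts of fat for milk.

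All animals carried MMTV-PyMT, a transgene in which the mouse mammary tumor virus promoter drives the polyoma middle T oncogene in mammary epithelium. Each of the 4 groups, wild type (WT) and PKA mice at the hyperplasia and at the tumor stage, had 1 library. Hyperplastic glands were taken at 8 to 9 weeks of age. Tumors were taken at 16 to 20 weeks according to the sample labels and at 22 weeks according to the series design. PKA is protein kinase A, the cyclic AMP-dependent kinase. The labels call the genotype of the PKA mice "PKA activated" and do not state the allele, the cells it acts in or the number of animals behind a library. Cells were sorted by FACS with a gate that the labels do not describe. The question behind the comparison of PKA with WT is how the members' expression differs when PKA signaling is activated. With 1 library per group, the values compare 1 PKA library with 1 WT library at each stage.

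The annotated cells numbered 3808 for WT hyperplasia, 3818 for PKA hyperplasia, 5181 for WT tumor and 2638 for PKA tumor, with medians of 2637.5, 2557, 4391 and 5890.5 UMIs per cell. Pairs of libraries shared 16 to 24 cell barcodes, at most 0.758% of the smaller library. Cells carried the study's own class names: Basal, Luminal Progenitor 1, Luminal Progenitor 2 and Mature Luminal in hyperplasia, and Luminal Progenitor 1, Mature Luminal, Lumino-Basal and EMT-like in tumors. The summed Mature Luminal markers (Pgr, Prlr, Foxa1, Gpx3, Esr1) stood at 3688 to 5838 CPM (UMIs per 1000000 UMIs of the class) in the Mature Luminal classes and at 119 or less elsewhere. The EMT-like class was not the highest in its name's markers: their sum (Trim29, Vim, Cldn6, Sox4) was 255 CPM in the WT and 366 CPM in the PKA tumor, below every other tumor class, with Trim29 and Cldn6 at 0 in both. The Lumino-Basal markers (Krt14, Krt8, Cd14) summed to 3410 CPM in WT Lumino-Basal cells, below the 4563 CPM of WT tumor Mature Luminal cells. These 2 names are used below as the deposited class names only. Adipocyte markers were at 0 to 7.46 CPM in every class, with Adipoq and Cidec at 0 throughout. T and B cell markers summed to at most 2.60 CPM, endothelial markers to 3.40 to 390 CPM, macrophage markers to 9.42 to 400 CPM and fibroblast markers to 4.17 to 1639 CPM, each highest in WT hyperplasia Basal cells except the T and B cell markers.

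A level is the CPM of a member's UMIs summed over the cells of a class. A difference is the log2 ratio of 2 such levels with an exact binomial 95% interval, which covers counting error only. With 1 library per group there was no replicate check and no p-value, so each ratio compares libraries and not conditions. A member was measured in a class if its UMIs of the PKA and WT cells together reached 20. It was counted as higher or lower when the ratio was at least 1.5-fold and the whole interval lay on one side of 0. The percentage of all genes that met the same rule is given as the background.

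Promoter sequences were searched for short motifs in the members of both arms. Of the 31 members, 24 matched a RefSeq promoter entry (GRCm38.p6), read as the 250 bases before the annotated start. The sterol members Fdps, Fdft1 and Sqle had no such entry. The CCAAT box, bound by NF-Y, was searched as CCAAT on both strands and occurred in 9 of 9 matched sterol members and in 10 of 15 matched fatty acid members. Of all 27025 genes with such windows, 37.5% held it at a start. For Dhcr7 and Me1 the match lay only at an internal alternative start, and the Cd36 window lies inside the gene. The Acaca window, which held no CCAAT, also lies inside its gene. The core of the sterol regulatory element, TCACNCCAC, occurred in 1 of 24 members, Hmgcs1, and in 1.22% of all genes with windows. The E-box CACGTG occurred in 4 members, Elovl5, Sc5d, Dhcr7 and Insig1, in Dhcr7 at an alternative start only, and in 6.86% of the genes. The cyclic AMP response element TGACGTCA occurred in 0 of 24 members and in 1.77% of the genes. A match describes letters in this window and not a bound site. The windows below are those of 3 sterol enzymes that were lower in PKA tumor Mature Luminal cells (Hmgcs1, Mvd and Sc5d), of Fasn as the central fatty acid enzyme, and of Acsl4, the member with the most widespread tumor difference. Capitals mark CCAAT or its reverse complement ATTGG, and in Hmgcs1 also the sterol regulatory element core, which lies 137 bases before the start. The windows lie at chr13:119690101-119690350 on the plus strand (Hmgcs1), and on the minus strand at chr8:122443423-122443672 (Mvd), chr9:42264301-42264550 (Sc5d), chr11:120824548-120824797 (Fasn) and chrX:142390536-142390785 (Acsl4), each printed 5′ to 3′ along the gene.
Hmgcs1: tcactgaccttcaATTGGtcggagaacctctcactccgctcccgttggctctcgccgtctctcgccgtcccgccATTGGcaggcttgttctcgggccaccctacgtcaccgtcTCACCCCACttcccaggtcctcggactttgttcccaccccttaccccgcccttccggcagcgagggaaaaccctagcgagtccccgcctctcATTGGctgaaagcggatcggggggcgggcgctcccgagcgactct
Mvd: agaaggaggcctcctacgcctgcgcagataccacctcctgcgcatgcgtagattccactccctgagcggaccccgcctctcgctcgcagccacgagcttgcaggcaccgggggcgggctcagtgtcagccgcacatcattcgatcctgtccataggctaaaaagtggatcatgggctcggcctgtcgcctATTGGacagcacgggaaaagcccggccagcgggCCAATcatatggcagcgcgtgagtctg
Sc5d: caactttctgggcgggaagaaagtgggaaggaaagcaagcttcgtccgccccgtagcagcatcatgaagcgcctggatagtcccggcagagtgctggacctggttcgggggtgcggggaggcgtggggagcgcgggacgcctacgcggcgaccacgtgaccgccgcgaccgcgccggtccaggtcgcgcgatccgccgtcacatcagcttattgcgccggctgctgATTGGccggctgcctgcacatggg
Fasn: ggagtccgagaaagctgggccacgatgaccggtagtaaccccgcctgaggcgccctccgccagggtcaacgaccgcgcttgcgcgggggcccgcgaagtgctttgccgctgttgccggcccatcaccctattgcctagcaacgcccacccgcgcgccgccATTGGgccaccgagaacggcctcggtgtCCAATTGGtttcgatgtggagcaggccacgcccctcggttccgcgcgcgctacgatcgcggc
Acsl4: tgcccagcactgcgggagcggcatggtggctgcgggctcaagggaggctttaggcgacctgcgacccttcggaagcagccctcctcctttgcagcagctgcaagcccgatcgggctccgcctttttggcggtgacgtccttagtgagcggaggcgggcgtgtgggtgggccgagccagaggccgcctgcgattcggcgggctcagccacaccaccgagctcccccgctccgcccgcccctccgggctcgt
Hmgcs1 and Fasn held 3 CCAAT matches each, Mvd 2 and Sc5d 1, while the Acsl4 window held none.

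Over the 4 hyperplasia classes, 94 member and class pairs were measured, of which 8 were higher and 9 lower in the PKA library. Of all 35906 gene and class pairs measured there, 4.51% were higher and 5.53% lower. Over the 4 tumor classes, 114 pairs were measured, of which 19 were higher and 24 lower. Of all 50817 gene and class pairs there, 12.2% were higher and 9.45% lower. The direction depended on the class and on the arm of the pathway. In tumors, sterol members were lower in 11 pairs, 8 of them in Mature Luminal cells, and higher in 2 pairs, both in EMT-like cells. Fatty acid members were higher in 17 tumor pairs and lower in 13. Summed over all cells, where class shares also enter, 1 member was higher in PKA hyperplasia (Me1) and 3 lower (Acot1, Lpl, Insig1), with 5.22% of all genes higher and 5.02% lower. In tumors 3 were higher (Scd1, Acsl4, Plin2) and 9 lower (Acly, Thrsp, Acot1, Lpl, Hmgcs1, Mvd, Fdft1, Cyp51, Msmo1), with 13.3% and 12.1% of all genes.

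**Figure D1:**
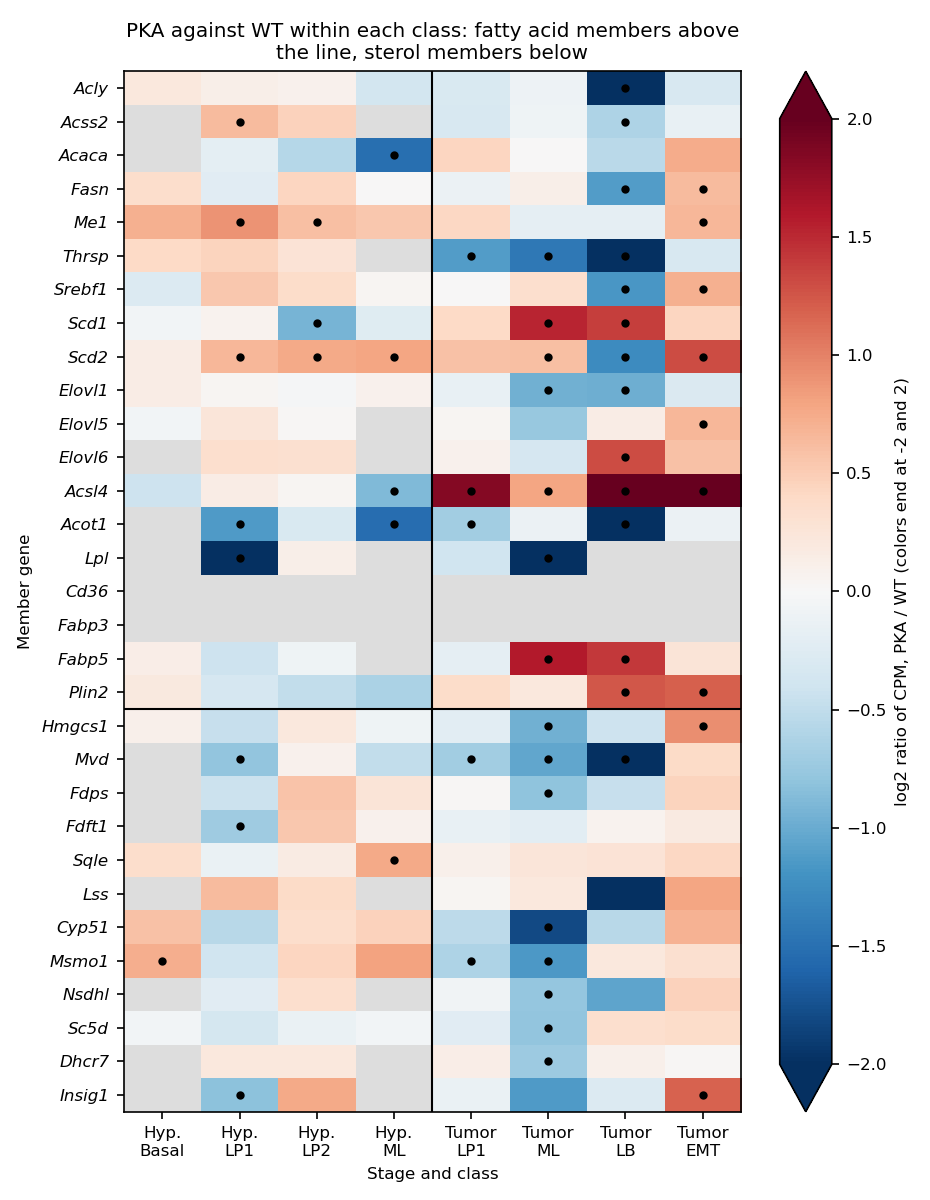
Heat map of the log2 ratio of CPM, PKA over WT, for the 31 members (rows) in the 4 hyperplasia and 4 tumor classes (columns: LP1 and LP2, Luminal Progenitor 1 and 2; ML, Mature Luminal; LB, Lumino-Basal; EMT, EMT-like). Grey marks fewer than 20 UMIs, black dots mark ratios past the rule, and the ratios of Acss2 and Mvd in LB are bounds; the column of tumor ML holds 8 dots in blue among the sterol members.

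In tumor Mature Luminal cells, the PKA library held less of most sterol enzymes. The summed level of the 12 sterol members was 466 CPM in 177 PKA cells and 700 CPM in 872 WT cells. Of the 12, 8 were lower, 0 were higher, and their median log2 ratio was −0.80, against 0.07 for all genes of the class. Among all 12071 genes measured there, 6.98% were lower and 13.5% higher. With TMM scaling, 41.7% of the called genes of this class were higher, instead of 66.0%, the median of all genes was −0.10, and 9 sterol members were lower.

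The lower members spanned the pathway from its first to its last steps. Hmgcs1, the cytosolic HMG-CoA synthase, reached 32.8 CPM in PKA and 63.7 in WT Mature Luminal tumor cells (log2 −0.96, −1.43 to −0.51). Mvd, the mevalonate diphosphate decarboxylase, stood at 22.3 and 45.7 CPM (−1.03, −1.61 to −0.49). Fdps, which makes farnesyl diphosphate, stood at 23.0 and 40.2 CPM (−0.80, −1.38 to −0.26). The steps after lanosterol held the largest difference of the class's sterol members. Cyp51, the lanosterol 14-alpha-demethylase, had 17.4 CPM in PKA and 61.1 CPM in WT cells (−1.81, −2.46 to −1.22). Msmo1, the C4-methylsterol oxidase of a later step, had 51.0 and 113 CPM (−1.15, −1.52 to −0.80). Nsdhl, the decarboxylating dehydrogenase of the same C4 position, had 26.5 and 45.3 CPM (−0.77, −1.31 to −0.27). The last desaturation and the last reduction had the same direction. Sc5d, the sterol C5-desaturase, had 44.7 and 77.2 CPM (−0.79, −1.20 to −0.40). Dhcr7, which makes cholesterol from 7-dehydrocholesterol, had 33.5 and 55.3 CPM (−0.72, −1.20 to −0.28).

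Of the other 4 sterol members, Sqle and Lss had ratios above 0 and Fdft1 and Insig1 below 0. Sqle, the squalene epoxidase, had 169 CPM in PKA against 143 CPM in WT cells (0.24), the 2 highest Sqle levels of the 16 library and class pairs. Fdft1, the squalene synthase, had 32.1 and 37.3 CPM, Lss, the lanosterol synthase, 9.77 and 8.40 CPM, and Insig1 4.19 and 9.22 CPM. None of these 4 met the rule. Outside the members, Abcg1, a cholesterol exporter, stood at 228 and 57.6 CPM (1.98). Of 25 other genes of sterol synthesis, uptake and export, 23 were measured in this class, of which 4 were higher (Tm7sf2, Npc1, Abca1, Abcg1) and 4 lower, among them Acat2, Mvk and Ebp.

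**Figure D2:**
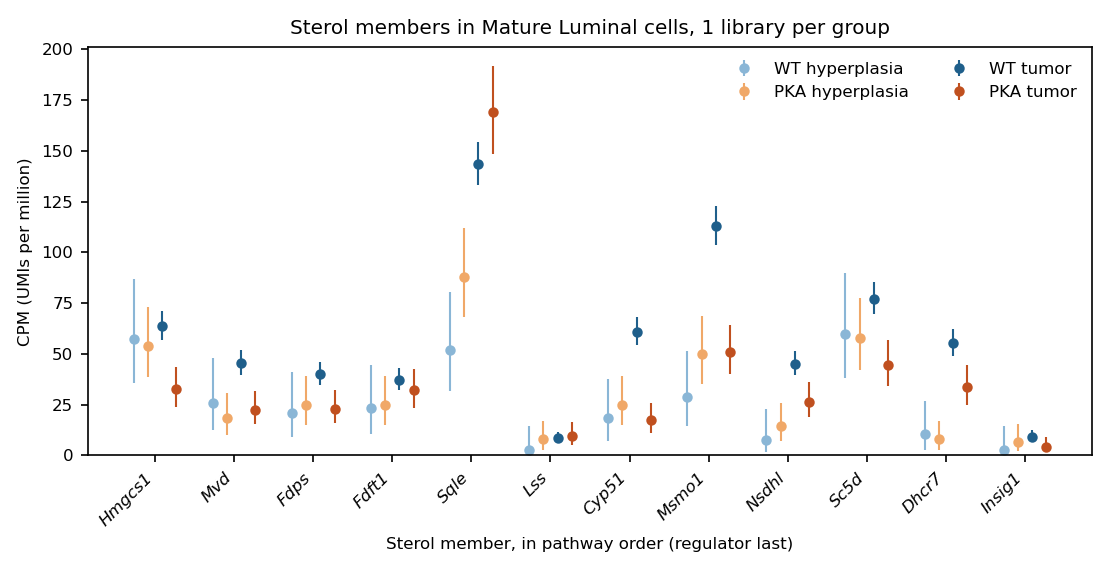
CPM of the 12 sterol members (x axis, in pathway order) in Mature Luminal cells of the 4 libraries, with exact Poisson 95% intervals. WT tumor points lie above PKA tumor points for Cyp51 (61.1 and 17.4 CPM) and Msmo1 (113 and 51.0 CPM), while Sqle lies higher in both tumor libraries than in either hyperplasia library.

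The Mature Luminal tumor libraries also differed in Dcn, which encodes the proteoglycan decorin and is a fibroblast marker. Of the WT cells 32.8% (286 of 872) held a Dcn UMI, and of the PKA cells 5.08% (9 of 177). The fibroblast genes Col1a2, Col3a1 and Lum were at 0 in both, and the values of Col1a1 and Pdgfra, of the same marker list, are not given here. Without the cells that held a Dcn UMI, 7 sterol members were lower and their median was −0.86. PKA cells were deeper, with a median of 8362 UMIs against 5492. When each cell was thinned to 2000 UMIs, 2 sterol members met the rule and the median was −0.50. Part of the cells of this class expressed Fgb, a fibrinogen chain, or Upk3a, a uroplakin. After thinning, the sterol members summed to 632 CPM (579 to 688) in the 417 WT cells with an Fgb or Upk3a UMI and to 714 CPM (658 to 773) in the 428 without. In PKA cells the sums were 538 CPM (407 to 697) in 53 cells with and 534 CPM (445 to 635) in 119 cells without. Only the WT cells without such a UMI had an interval that did not overlap that of the larger PKA subset.

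The fatty acid members of tumor Mature Luminal cells did not follow the sterol members. Of 17 measured, 4 were higher and 3 lower, with a median of −0.09. Scd1, a stearoyl-CoA desaturase, reached 446 CPM in PKA and 155 in WT cells (1.53, 1.37 to 1.68). Scd2, its paralog, stood at 259 and 171 CPM (0.60, 0.42 to 0.78). Both desaturase members were thus higher in the PKA library. Thrsp, a regulator of lipogenesis known as Spot 14, was lower at 9.77 and 26.2 CPM (−1.42, −2.34 to −0.62). Fabp5, a fatty acid binding protein, stood at 16.1 and 5.33 CPM (1.59, 0.72 to 2.46), from 23 and 26 UMIs. Elovl1, the elongase of very long saturated chains, was lower at 94.9 and 186 CPM (−0.97, −1.24 to −0.71). Lpl, the lipoprotein lipase, was lower at 3.49 and 21.7 CPM (−2.64, −4.29 to −1.37). This WT tumor level of Lpl was the highest of all classes, with an interval (17.8 to 26.3) that overlapped the next, that of WT Basal cells (5.48 to 32.5).

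In EMT-like tumor cells, the called members of both arms were higher in the PKA library. Of 16 measured fatty acid members, 7 were higher and 0 lower in the PKA library, with a median log2 ratio of 0.61. Of the 12 sterol members, 2 were higher and 0 lower, all 12 ratios were above 0, and the median was 0.43. All genes of the class had a median of 0.01, with 10.8% higher and 9.66% lower. With TMM scaling the median of all genes moved to −0.17, 31.1% instead of 52.9% of the called genes were higher, and 3 fatty acid and 2 sterol members were higher.

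Srebf1 had its highest levels in this class. It stood at 775 CPM in 238 PKA cells and 474 CPM in 768 WT cells (0.71, 0.58 to 0.84), the 2 highest Srebf1 levels of the 16 pairs. Fasn stood at 45.2 and 29.0 CPM (0.64, 0.08 to 1.18) and Me1 at 120 and 76.0 CPM (0.66, 0.32 to 0.99). Among the modifying enzymes, Scd2 stood at 299 and 121 CPM (1.30, 1.07 to 1.53). Elovl5, which extends polyunsaturated chains, stood at 52.6 and 33.1 CPM (0.67, 0.15 to 1.18). Plin2, the coat protein of lipid droplets, stood at 311 and 135 CPM (1.20, 0.98 to 1.42). Acly, which supplies the acetyl-CoA, showed no such difference at 41.5 and 51.9 CPM.

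The 2 sterol members called in EMT-like cells were an early enzyme and the retention protein of the pathway. Hmgcs1 had 38.8 CPM in PKA against 20.4 CPM in WT cells (0.92, 0.30 to 1.54). Insig1 stood at 34.1 and 15.1 CPM (1.17, 0.48 to 1.87). Outside the members, Srebf2 stood at 77.5 and 40.9 CPM (0.92). Fads1 and Fads2, the front-end desaturases of polyunsaturated fatty acids, stood at 72.9 and 32.7 CPM (1.16) and at 27.7 and 10.2 CPM (1.44). Xdh, the xanthine dehydrogenase of the milk fat globule, was lower at 125 and 220 CPM (−0.82). The EMT-like cells also differed in Luminal Progenitor markers, whose sum was 7457 CPM in PKA and 2538 CPM in WT, most of it Lalba (6911 and 1607 CPM). The part of this in the member differences was not tested.

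Lumino-Basal tumor cells held the largest ratios, from 66 PKA cells against 1198 WT cells. Of 16 measured fatty acid members, 5 were higher and 8 lower, with a median of −0.58. Of the 12 sterol members, Mvd was lower and the others met no rule, with a median of −0.34. Among all genes 10.8% were higher and 11.9% lower, with a median of −0.07. With TMM scaling that median was −0.24, and higher genes were 32.4% instead of 47.7% of those called.

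Of the 7 genes for making the chain, 5 were lower in the PKA Lumino-Basal cells. Thrsp reached 9.76 CPM in PKA and 697 in WT cells (−6.16, −8.03 to −4.80), from 4 and 4654 UMIs. Acly stood at 36.6 and 148 CPM (−2.01, −2.85 to −1.28) and Fasn at 34.2 and 74.1 CPM (−1.12, −1.999 to −0.36). Acss2, which makes acetyl-CoA from acetate, had 0 UMIs in PKA and 75 in WT cells, at least 1.53-fold lower with a floor of 3 counts in the class. Srebf1 stood at 161 and 360 CPM (−1.16, −1.54 to −0.81). Acaca, at 24.4 and 35.3 CPM, and Me1, at 53.7 and 60.5 CPM, did not meet the rule. The WT Lumino-Basal level of Thrsp was the highest of the 16 library and class pairs, and that of Acly overlapped in its interval the 143 CPM of PKA hyperplasia Luminal Progenitor 2 cells. Acot1, an acyl-CoA thioesterase, stood at 78.1 and 545 CPM (−2.80, −3.35 to −2.30), and its close paralog Acot2 was lower as well. Mvd had 0 UMIs in PKA and 268 in WT cells, at least 5.48-fold lower.

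Genes for modifying, binding and storing the chain were split in these cells. Scd1 had 1123 CPM in PKA against 433 CPM in WT cells (1.38, 1.23 to 1.52), while Scd2 stood at 80.5 and 193 CPM (−1.26, −1.80 to −0.76). Here the 2 desaturases differed in opposite directions. Elovl6, which extends palmitate to stearate, stood at 29.3 and 11.8 CPM (1.31, 0.30 to 2.19), from 12 and 79 UMIs, and Elovl1 at 78.1 and 154 CPM (−0.98, −1.54 to −0.47). Fabp5 stood at 110 and 41.3 CPM (1.41, 0.92 to 1.87) and Plin2 at 437 and 186 CPM (1.24, 1.001 to 1.46). Of 17 measured genes of fatty acid oxidation, 9 were lower and 0 higher. The sum of milk protein genes was 2453 CPM in PKA and 9718 CPM in WT Lumino-Basal cells. Fibroblast markers summed to 737 CPM in PKA and 117 CPM in WT cells, and all Dcn UMIs of the PKA cells (681 CPM) lay in 2 of the 66 cells. Without the cells that held a Dcn UMI, 5 fatty acid members were higher and 8 lower, as with them. The part of the milk protein difference was not tested.

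Acsl4, the long-chain acyl-CoA synthetase that prefers arachidonate, was higher in the PKA library in all 4 tumor classes. Its levels were 275 CPM in PKA and 76.9 CPM in WT Luminal Progenitor 1 cells (1.84, 1.73 to 1.95), where 13.1% of all genes were higher and 9.29% lower. They were 344 and 33.1 CPM in Lumino-Basal cells (3.38, 3.06 to 3.69), 431 and 88.7 CPM in EMT-like cells (2.28, 2.05 to 2.52) and 58.6 and 33.8 CPM in Mature Luminal cells (0.79, 0.40 to 1.18). Weighting the 4 classes equally gave a log2 ratio of 2.25. Without the cells that held a Dcn UMI, the Mature Luminal ratio was 0.57 and no longer met the rule. The share of cells with an Acsl4 UMI moved with the level. After thinning to 2000 UMIs, 36.2% of PKA (34.1 to 38.4) and 12.0% of WT (10.7 to 13.5) Luminal Progenitor 1 tumor cells held one. The corresponding shares were 50.7% and 15.1% in EMT-like cells and 39.7% and 5.07% in Lumino-Basal cells. In hyperplasia, Acsl4 did not follow this pattern. It stood at 133 and 120 CPM in Luminal Progenitor 1 cells and was lower in PKA Mature Luminal cells, at 61.8 and 115 CPM (−0.89, −1.51 to −0.26). That call was also lost without the cells that held a Dcn UMI. The highest hyperplasia levels were those of Basal cells, with 246 (PKA) and 328 (WT) CPM.

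**Figure D3:**
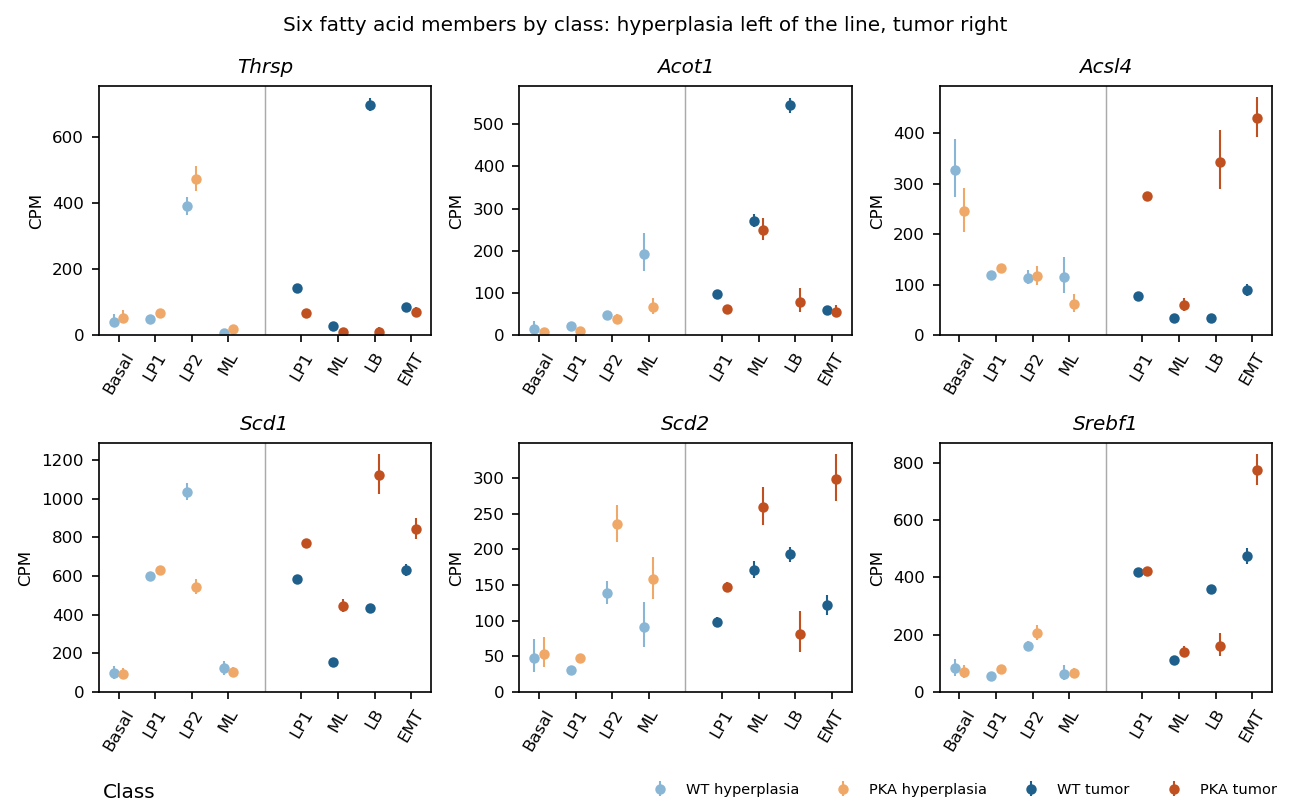
CPM (linear axes, exact Poisson 95% intervals) of Thrsp, Acot1, Acsl4, Scd1, Scd2 and Srebf1 in each class (abbreviated as in the heat map) of the 4 libraries. PKA tumor points of Acsl4 lie at 275, 344 and 431 CPM in LP1, LB and EMT, and the WT tumor LB points of Thrsp and Acot1 lie at 697 and 545 CPM.

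In Luminal Progenitor 1 tumor cells, the class with the most UMIs in both tumor libraries, few other members differed. Of 17 measured fatty acid members, Acsl4 was higher and Thrsp and Acot1 were lower. Thrsp reached 65.3 CPM in PKA and 142 in WT cells (−1.12, −1.24 to −1.003), and Acot1 at 60.5 and 98.1 CPM (−0.70, −0.83 to −0.57). Of the 12 sterol members, Mvd and Msmo1 were lower, at 9.54 and 15.4 CPM (−0.69, −1.04 to −0.35) and at 28.1 and 43.1 CPM (−0.62, −0.82 to −0.42). Srebf1 was nearly equal, at 421 and 418 CPM. The list medians, 0.01 for fatty acid and −0.14 for sterol members, were near the 0.00 of all genes. Scd2 had 147 and 98.6 CPM (0.58), just under the rule.

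Thrsp varied widely between classes and between cells. Its levels ran from 5.21 CPM in WT hyperplasia Mature Luminal cells to 697 CPM in WT tumor Lumino-Basal cells. Luminal Progenitor 2 cells came next, with 471 CPM (435 to 510) in PKA and 390 CPM (364 to 417) in WT hyperplasia. After thinning to 2000 UMIs, 34.2% of 1105 WT Lumino-Basal cells held a Thrsp UMI (31.4 to 37.1), and the 10% of cells with the most held 62.5% of its UMIs. One of 63 PKA Lumino-Basal cells held one, a share of 1.59% (0.04 to 8.53). No class is known to lack Thrsp, so the Mature Luminal class, with the lowest levels, served as the measure of free RNA: 4.26% of WT tumor and 4.60% of PKA hyperplasia cells held a UMI at the same thinned depth, with 0 of 172 PKA tumor cells (upper limit 2.12%). In WT hyperplasia, 0 of 88 Mature Luminal cells held one. The 1.59% of PKA Lumino-Basal cells lay below the 4.26% and 4.60%, which come from other libraries. It lay above the 0 of 172 cells of its own library, with overlapping intervals. These shares therefore cannot tell whether PKA Lumino-Basal cells held Thrsp above free RNA. In Luminal Progenitor 2 cells the share was 47.1% in PKA (41.1 to 53.2) and 33.4% in WT (29.1 to 37.9).

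The WT Lumino-Basal cells with and without a Thrsp UMI differed in other members. The 378 cells with one held 595 CPM of Srebf1 against 245 CPM in the 727 without (1.28, 1.08 to 1.49). Fasn stood at 106 and 55.0 CPM (0.94, 0.48 to 1.41), and Acly at 192 and 104 CPM (0.89, 0.55 to 1.22). Scd2 stood at 257 and 148 CPM (0.80, 0.51 to 1.08). These 4 lipogenic members were higher beside Thrsp, as was Mvd at 44.97 and 19.3 CPM (1.22, 0.46 to 1.999), while 3 late sterol enzymes were lower. Cyp51 stood at 18.5 and 40.6 CPM (−1.13, −2.09 to −0.27), and Msmo1 at 50.3 and 105 CPM (−1.06, −1.61 to −0.54). Dhcr7 stood at 63.5 and 95.6 CPM (−0.59, −1.10 to −0.11). Insig1 was higher beside Thrsp at 19.8 and 8.25 CPM (1.27, 0.07 to 2.49), from 15 and 12 UMIs. In Luminal Progenitor 1 tumor cells the same split gave the other sign for 2 of these enzymes. The Cyp51 ratio was 0.82 (0.03 to 1.55) in the WT library and 1.34 (0.13 to 2.38) in the PKA library, and that of Dhcr7 was 0.71 (0.15 to 1.24) in the WT library. The same split of the Lumino-Basal cells carried other differences. Basal markers (Krt14, Krt5, Snai2) summed to 251 CPM in cells with and 1649 CPM in cells without a Thrsp UMI, and milk protein genes to 12214 and 5866 CPM. Their part in the member differences was not tested. The share of all genes that differ in this split was not computed, so the member differences have no background here. Cells with a Thrsp UMI were deeper before thinning, with medians of 6874.5 and 4822 UMIs, and these cells share 1 library, so the values describe that library.

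**Figure D4:**
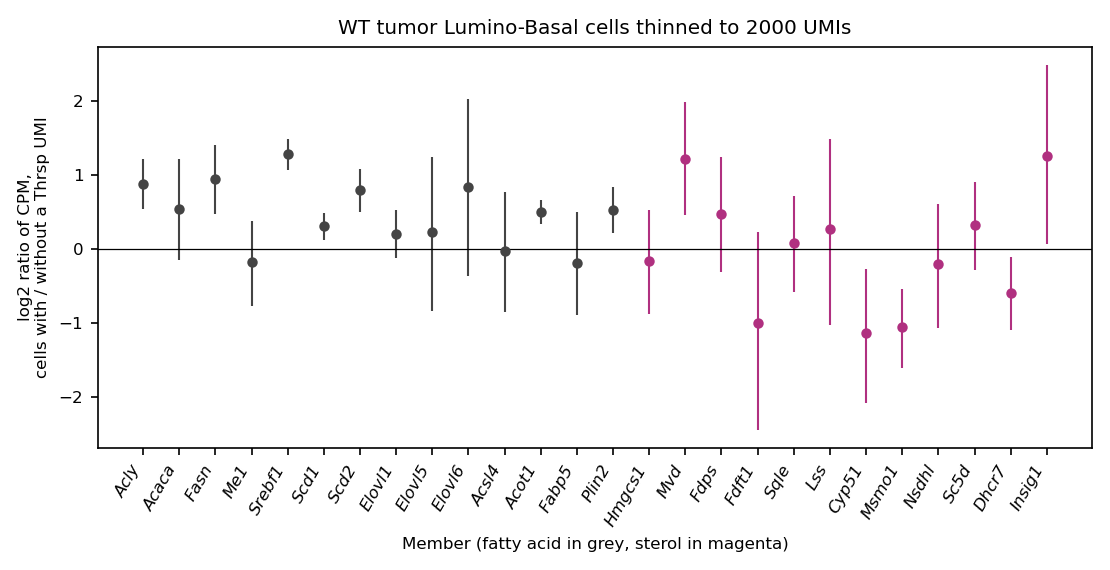
Log2 ratio of CPM between the 378 WT tumor Lumino-Basal cells with and the 727 without a Thrsp UMI (y axis), each cell thinned to 2000 UMIs, for the members (x axis), with exact binomial 95% intervals. Srebf1 lies at 1.28 and Fasn at 0.94, while Cyp51 and Msmo1 lie at −1.13 and −1.06.

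In Luminal Progenitor 1 hyperplasia cells 3 of 17 measured fatty acid members were higher and 2 lower, where 4.59% of all genes were higher and 5.52% lower. Me1, the NADPH-producing malic enzyme, had 102 CPM in PKA against 54.4 CPM in WT cells (0.90, 0.73 to 1.08). Scd2 stood at 47.7 and 30.2 CPM (0.66, 0.42 to 0.90) and Acss2 at 9.07 and 5.86 CPM (0.63, 0.08 to 1.20). Acot1 was lower at 9.69 and 21.3 CPM (−1.13, −1.54 to −0.74), as was Lpl at 1.12 and 5.09 CPM (−2.19, −3.42 to −1.12), from 9 and 40 UMIs. The sterol members leaned to lower values: 10 of 12 ratios were below 0, 3 met the rule, and the median was −0.42 against −0.01 for all genes. Mvd stood at 13.5 and 23.4 CPM (−0.79), Fdft1 at 8.94 and 14.6 CPM (−0.71) and Insig1 at 6.58 and 11.6 CPM (−0.82). Plin2, whose highest level of all pairs was in WT hyperplasia Luminal Progenitor 1 cells, had 464 and 584 CPM and did not meet the rule.

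In Luminal Progenitor 2 cells, 2 fatty acid members were higher and 1 lower of 17 measured, with 3.77% of all genes higher and 3.84% lower. The desaturases again differed in opposite directions, but the reverse of the Lumino-Basal cells. Scd1 reached 545 CPM in PKA and 1036 in WT cells (−0.93, −1.05 to −0.81) and Scd2 at 235 and 138 CPM (0.76, 0.53 to 0.996). Me1 stood at 124 and 82.0 CPM (0.60, 0.28 to 0.91). None of the 12 sterol members met the rule, and their median was 0.35 against 0.02 for all genes. The highest Fasn level of the 16 pairs was that of PKA Luminal Progenitor 2 cells, 91.4 CPM, against 67.6 CPM in WT, with an interval (75.9 to 109) that overlapped that of WT Lumino-Basal cells (67.7 to 81.0).

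Mature Luminal hyperplasia cells were few, 251 in PKA and 116 in WT, and 11 fatty acid and 8 sterol members were measured. Of the fatty acid members 1 was higher and 3 lower, and of the sterol members 1 was higher, where 6.43% of all genes were higher and 7.92% lower. Scd2 was higher at 158 and 91.1 CPM (0.79, 0.24 to 1.38). Acot1 was lower at 67.1 and 193 CPM (−1.52, −2.07 to −0.99), and Acaca at 11.8 and 33.8 CPM (−1.52), from 9 and 13 UMIs. Acsl4, given above, was the other lower member. Scd2 was thus higher in the PKA library in 3 of the 4 hyperplasia classes. Sqle stood at 88.1 and 52.1 CPM (0.76, 0.02 to 1.56). With TMM scaling, higher genes were 62.5% instead of 44.8% of those called in this class. A Dcn UMI was held by 9.96% of PKA and 39.7% of WT cells here. Without those cells, 1 fatty acid member was higher (Scd2), 1 was lower (Acot1) and 0 sterol members were called. The Sqle call was also lost with the filter on cells, in thinned cells and with class totals that leave out milk, ribosomal protein and mitochondrial genes.

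In Basal cells, Msmo1 was the single member of 17 measured that met the rule, with 107 CPM in PKA against 64.7 CPM in WT cells (0.73, 0.03 to 1.46). Its call was lost in thinned cells, without the cells that held a Dcn UMI, without the deepest 5% of cells and with the mean of each cell's CPM. Of all genes, 3.34% were higher and 5.58% lower there, and higher genes were 37.4% of those called, or 49.9% with TMM scaling. Cd36, the fatty acid transporter, had 16 UMIs in all, of which 12 were in WT Basal cells. Those cells also held 390 CPM of endothelial markers, against 125 CPM in PKA Basal cells, and 400 CPM of macrophage markers, against 17.5 CPM. Cd36 and Fabp3, the heart-type fatty acid binding protein with 23 UMIs in all, were measured in no class.

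Tumors were set beside hyperplasia within the 2 classes named at both stages. Age and tissue digestion differed together with stage, so these cannot be told apart. The files of the 2 stages may also have been counted differently: some gene rows occurred in the hyperplasia files only, and Pfn1, which every cell uses, was lower in tumors by a log2 ratio of −5.86 in WT and −5.90 in PKA. In WT Luminal Progenitor 1 cells 35.3% of all genes were higher and 17.2% lower in the tumor, with 36.6% and 16.2% in PKA cells. In this class 11 members had the same call in both genotypes: Srebf1, Scd2, Elovl5, Elovl6, Acot1, Nsdhl and Dhcr7 were higher in the tumor and Elovl1, Plin2, Hmgcs1 and Msmo1 lower. The share of all genes called alike in both genotypes was not computed, so this count has no background. Acss2, Thrsp and Lss (higher) and Lpl, Mvd, Sqle and Cyp51 (lower) were called in WT, and Insig1 (higher) and Acly (lower) in PKA. Srebf1 had 418 CPM in the tumor against 54.2 CPM in hyperplasia in WT (2.95) and 421 against 78.6 CPM in PKA (2.42). Plin2 was lower in both, at 227 against 584 CPM in WT and 292 against 464 CPM in PKA. Acsl4 went opposite ways, at 76.9 against 120 CPM in WT (−0.64, −0.78 to −0.50) and 275 against 133 CPM in PKA (1.05, 0.95 to 1.15); the difference between them was not tested.

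The sterol members of Mature Luminal cells stood higher in the WT tumor than in WT hyperplasia. All 12 ratios were above 0, with a median of 1.58 against 0.11 for all genes, of which 14.9% were higher and 14.1% lower. Msmo1 stood at 113 CPM in the tumor and 28.6 CPM in hyperplasia (1.98, 1.13 to 2.99), and Cyp51 at 61.1 and 18.2 CPM (1.74, 0.68 to 3.07), from 298 and 7 UMIs. In PKA cells the median was 0.28 against 0.17 for all genes, with 21.9% higher and 10.8% lower. There Msmo1 stood at 51.0 and 49.98 CPM and Cyp51 at 17.4 and 25.0 CPM. The WT tumor library is part of both this comparison and that of the tumors, so they are not independent. The other calls were Me1, Thrsp, Srebf1, Scd2, Elovl1, Nsdhl and Dhcr7 (higher) and Acaca, Acsl4 and Plin2 (lower) in WT, and Fasn, Me1, Srebf1, Scd2, Acot1, Fabp5 and Dhcr7 (higher) and Hmgcs1 (lower) in PKA. Sqle was higher in the tumor in both genotypes, at 143 against 52.1 CPM in WT and 169 against 88.1 CPM in PKA. Scd1 reached 446 CPM in PKA tumor cells from 104 CPM in PKA hyperplasia cells (2.10, 1.76 to 2.46), with 155 and 122 CPM in WT.

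Other lipid genes were read from lists of sterol metabolism, fatty acid metabolism, milk fat globule, oxidation and lipolysis. In Luminal Progenitor 1 cells, 3 of the 74 measured at both stages were called in the same direction at both, against 2.02% of all genes measured at both. Of the members, 2 of the 29 measured at both were called alike, Acot1 and Mvd, both lower in PKA cells. The 3 other lipid genes were Abcg1, Acacb and G0s2. Abcg1 was higher in PKA cells, at 18.4 and 7.77 CPM in hyperplasia (1.24) and at 82.1 and 37.3 CPM in tumors (1.14). Acacb, the mitochondrial acetyl-CoA carboxylase, was higher at 12.4 and 6.49 CPM (0.94) and at 6.58 and 2.95 CPM (1.15). G0s2, an inhibitor of adipose triglyceride lipase, was lower at 87.2 and 141 CPM (−0.69) and at 74.4 and 132 CPM (−0.83). Abcg1 was higher in the PKA library in all 4 tumor classes. Fads2 changed direction between stages, at 4.84 and 10.2 CPM in hyperplasia (−1.07) and 15.7 and 10.0 CPM in tumors (0.65). Fads1 was lower in hyperplasia at 32.5 and 58.1 CPM (−0.83). Btn1a1, a butyrophilin of the milk fat globule, was lower in hyperplasia Luminal Progenitor 1 cells at 88.1 and 150 CPM (−0.77) and in Luminal Progenitor 2 cells at 12.8 and 59.8 CPM (−2.22). In hyperplasia Luminal Progenitor 1 cells, 0 of 18 measured oxidation genes met the rule.

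Across the 16 library and class pairs, the genes whose log2(CPM + 10) was most like that of the summed sterol members were Krt15 (Pearson r = 0.87), Pa2g4 (0.84), Arl4c (0.83), Hprt (0.79) and Idh3a (0.79), among 6712 genes with at least 20 CPM on average. The pairs come from 4 libraries and share their depth, so these values are descriptions. Msmo1 was the nearest member, at rank 6 (0.78), although it is part of the sum. The median correlation between sterol members was 0.30 over 28 gene pairs, between fatty acid members 0.22 over 105 pairs, and between the arms −0.09 over 120 pairs. Acly and Fasn correlated at 0.79, as did Cyp51 and Msmo1, while Scd1 and Hmgcs1 correlated at −0.79. Highest levels, many with intervals that overlapped the next, were spread over classes: 8 members peaked in PKA EMT-like tumor cells, 7 in WT Mature Luminal tumor cells and 4 in WT Lumino-Basal cells. The share of all genes that peak in each pair was not computed. Of the 7 in Mature Luminal cells, Mvd, Fdps, Fdft1, Msmo1, Nsdhl and Sc5d were sterol members and Lpl was not.

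Some counts may include reads of neighbours. Acaca, Acss2, Cyp51, Elovl1, Fabp3, Fdft1, Fdps, Mvd and Srebf1 overlap another protein-coding gene in the annotation, among them Cyp51 with Akap9 and Srebf1 with Rai1, and no source used here gives the strand setting of the counting. Acot1 has the near-identical copy Acot2.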

How the data were processed

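Single-cell libraries of 4 groups, with 1 library each, were made with the 10x Chromium 3′ v2 kit, per the labels' protocols. The authors deposited UMI counts per gene and cell, not normalized, which are the unit of every level here. The authors also deposited cell tables with each cell's class name (assigned with Monocle2 from marker genes, per the series design), and a fraction of mitochondrial UMIs per the file headers. The build GRCm38 (mm10) and the tools STAR 2.5.3a, Cell Ranger, Subread 1.6.0 and featureCounts are listed in the submitters' processing notes, with no role or order. Only annotated cells were used. Doublets were not removed, and leaving out the deepest 5% of cells of each class was an alternative.

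Counts were summed per library and class (at least 50 cells) and scaled to CPM (UMIs per 1000000). Ratios have exact conditional binomial, levels exact Poisson and shares exact Clopper-Pearson 95% intervals, which cover counting error only. A call needed 20 UMIs in both sums together, a 1.5-fold ratio and an interval on one side of 0. A sum of 0 was set to a floor of 3 counts over the class. Shares used cells thinned to 2000 UMIs (seed 20), leaving out shallower cells. The calculations were tested on simulated data. Alternatives were TMM factors (edgeR), class totals that leave out milk, ribosomal protein and mitochondrial genes, averages of single cells' CPM, thinned cells, other minimums and folds, a filter on cells, and, chosen after seeing the data, cells without a Dcn UMI. The splits of cells by an Fgb or Upk3a UMI and by a Thrsp UMI were also chosen after seeing the data.

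All members were named, with values for those called in a class of a comparison. Other lipid genes were named where called alike in Luminal Progenitor 1 cells at both stages, or fixed by name (Srebf2, Fads1, Fads2, Xdh and Btn1a1); other genes fixed by name are not reported here. The gene names listed beside a count of 5 or fewer were chosen after their values were seen. The 5 genes most like the sterol sum were taken by Pearson r. The members and lists were chosen with earlier results of these data known. Marker lists of endothelial, macrophage, T and B cells, fibroblasts and adipocytes were summed per class. Promoters came from RefSeq (GRCm38.p6). Python 3.11.15, NumPy 2.4.6, pandas 2.3.3, SciPy 1.17.1, matplotlib 3.10.9, R 4.3.3 and edgeR 4.0.16 were used.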

Additional observations from a re-analysis of the deposited data

Results flagged for a closer look

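Acsl4 had opposite ratios in Mature Luminal cells at the 2 stages, PKA against WT: a log2 ratio of −0.89 in hyperplasia and of 0.79 in tumors. Without the cells that held a Dcn UMI, neither ratio met the rule. The difference between the stages was not tested, since each group is 1 library. Barcodes that the annotation left out carried 2 members that met the rule and stood at least 4-fold above the annotated cells of the same library. Fabp3 in WT hyperplasia (13.1-fold, from 6 UMIs) and Lpl in the PKA tumor (4.40-fold, from 2 UMIs) did not meet the rule. The share of all genes at least 4-fold higher in such barcodes is not given here. Cd36 stood at 13.8 CPM in the 1371 barcodes left out of WT hyperplasia, from 17 UMIs, against 1.11 CPM in the annotated cells. Several endothelial and macrophage markers were higher in the same barcodes, among them Cdh5 (18.5-fold), Pecam1 (9.93-fold), Kdr (8.23-fold) and Lyz2 (9.65-fold). Vwf (1.20-fold), Cd68 (1.11-fold), C1qb, Csf1r and Adgre1 did not meet the rule there. Thrsp stood at 515 CPM in the 296 barcodes left out of the PKA tumor, against 59.4 CPM in the annotated cells. Those 218 Thrsp UMIs lay in 20 barcodes, and 1 barcode held 68 of them. The macrophage markers Fcer1g (59.4-fold) and C1qa (23.8-fold) were higher there too, while Cd68, Adgre1 and Csf1r did not meet the rule. The part of these markers in the member levels was not tested. In the other 3 libraries the barcodes left out held Thrsp at 347 CPM (WT hyperplasia), 357 CPM (PKA hyperplasia) and 733 CPM (WT tumor).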

How the results depend on the processing

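No paired analysis was possible because each group is 1 library. With a 2-fold minimum, 4 instead of 17 member and class pairs were called in hyperplasia and 25 instead of 43 in tumors. Under the other alternatives the counts were 13 to 19 in hyperplasia, 30 to 47 in tumors and, between stages, 48 to 59 around 56. With thinned cells 84 of 110 called pairs were still called and 109 kept their sign. The exception was the ratio of Hmgcs1, PKA tumor against PKA hyperplasia, Mature Luminal cells, with a log2 ratio of 0.0167 instead of −0.72; the cause was not tested. With TMM factors 103 of 116 pairs were still called and all 116 kept their sign. Sterol members lower in tumor Mature Luminal cells numbered 2 in thinned cells, 3 with a 2-fold minimum, 7 without cells holding a Dcn UMI and 9 with TMM, with the mean of each cell's CPM, or without the deepest cells. Fatty acid members higher in EMT-like cells numbered 3 with TMM or a 2-fold minimum and 4 without the deepest cells. With the mean of each cell's CPM 5 were higher and 1 was lower. Ratios from the 66 PKA Lumino-Basal cells rest on few UMIs, and members under 20 UMIs could not be compared.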
